A study of Mus musculus with 6 samples.

Results

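The 28 genes described here encode enzymes of cholesterol and fatty acid synthesis, the sterol-sensing factors that control them and a pair of sterol transporters. They were listed by name for their place in the pathway, with earlier results of these data known, and all 28 were found among the 50686 genes of the count files and were abundant enough to be tested. RNASeq was available for 2 cultures of control NSC, which are primary neural stem cells taken from wild-type mouse embryos at E16.5. The other 2 cultures, labelled NSC Bmi1Over, came from embryos of the same age that carried *STOPFloxBmi1;NestinCre*. In the latter, Cre expressed from the Nestin promoter is meant to remove a stop cassette ahead of a *Bmi1* transgene, so that the transgene is switched on in neural progenitors. An H3K27me3 ChIPSeq peak list was available for 1 library of each kind. The mGIC samples were not analysed here.

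Cholesterol is built from acetyl-CoA in stages. The mevalonate stage makes isoprenoid units in the cytosol, squalene is then formed and closed to lanosterol, and a last set of enzymes in the endoplasmic reticulum trims lanosterol to cholesterol. The genes are controlled by the SREBP transcription factors, which Scap escorts out of the endoplasmic reticulum when sterols are scarce and Insig proteins hold back when sterols are plentiful. The brain makes its own cholesterol, as lipoproteins of the blood do not reach it, and dividing neural stem cells need fatty acids and sterols for new membrane.

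The libraries held between 18112100 and 61353076 reads on genes. *Bmi1* itself was at 133.3 and 123.5 CPM in NSC and at 118.6 and 112.6 CPM in the cultures labelled NSC Bmi1Over, where CPM is the read count scaled to the normalised (TMM) size of its library. Its log2 fold change was −0.15 (standard error 0.12, adjusted p = 0.463, edgeR), so that directions given here rest on the labels. All 10 neural stem cell markers were detected in the 4 libraries, at levels from 4.11 CPM for *Hes5* to 3063 CPM for *Slc1a3*. For 7 of them (*Sox2*, *Sox1*, *Pax6*, *Vim*, *Fabp7*, *Hes1* and *Hes5*) both libraries labelled NSC Bmi1Over lay below both NSC libraries, as against 30.0% of all genes tested, and for *Slc1a3* they lay above, as against 29.0%. *Sox2* was at 260.3 and 216.4 CPM in NSC as against 178.7 and 177.5 CPM (log2 fold change −0.42, standard error 0.14, adjusted p = 0.129, edgeR). The sum of the list, to which *Slc1a3* gave more than any other marker, ranged from 6024 to 6714 CPM. Microglial markers summed to 1.33 and 1.86 CPM in NSC as against 2.40 and 3.15 CPM, and endothelial markers to 2.66 and 3.88 CPM as against 4.97 and 5.53 CPM, with *Itgam* and *Cldn5* at 0. Mesenchymal and erythroid markers summed to at most 1.26 CPM in any library, with the haemoglobin genes *Hba-a1* and *Hbb-bs* at 0. Of the neuronal, astrocytic and oligodendroglial lists, 6, 7 and 8 genes were tested. At an adjusted p under 0.05 in edgeR's test, *Syt1* was higher and *Aldh1l1* and *Cnp* were lower in the cultures labelled NSC Bmi1Over. No other member of these lists passed, and of all genes tested 2.03% were called higher and 0.122% lower. Between the groups there was no overlap for 2 of the 6 neuronal genes tested (*Syt1* higher, *Snap25* lower). The same held for 4 of the 7 astrocytic genes (*Slc1a2* and *Gja1* higher, *Aldh1l1* and *Aldoc* lower) and 3 of the 8 oligodendroglial genes (*Olig2* higher, *Olig1* and *Cnp* lower). Of all genes tested, 29.0% lay higher without overlap and 30.0% lower. The summed levels of these 3 lists overlapped between the groups, with most of the neuronal sum from *Map2* and most of the oligodendroglial sum from *Olig1* and *Olig2*. *Syt1* was at 9.13 and 27.2 CPM in NSC as against 66.5 and 95.8 CPM, the same order of libraries as for many of the members. The part of other cells in the results was not tested. Of all reads, 11.2% and 13.8% could not be mapped in NSC, as against 16.2% and 17.6% in the cultures labelled NSC Bmi1Over. With bulk RNA, fewer expressing cells and less RNA per cell cannot be told apart.

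Promoter sequences are shown for 3 members because 2 of them, *Hsd17b7* and *Ebp*, are enzymes of the final stage that rose in the cultures labelled NSC Bmi1Over, while *Hmgcs1*, an enzyme at the entry to the mevalonate stage, did not pass the test. RefSeq (GRCm38.p6) gave promoter windows, from 250 bases before to 50 after the start of the gene, for 22 of the 28 members; *Fdps*, *Fdft1*, *Sqle*, *Stard4*, *Scd1* and *Scd2* had none in the table. The windows were searched on both strands for TCACNCCAC, a form of the sterol regulatory element to which SREBP binds, for CCAAT, the box of the NF-Y factor, and for GGGCGG, the box of Sp1, both known partners of SREBP. The *Hsd17b7* stretch ends 36 bases before the RefSeq start, and the others end at it. The stretches read 5′ to 3′ on the strand of the gene, stop where annotated exons begin, and carry these matches in capitals, where ATTGG and CCGCCC are CCAAT and GGGCGG on the other strand. They lie at chr1:169969242-169969408 (minus strand) for *Hsd17b7*, chrX:8193513-8193762 (minus strand) for *Ebp* and chr13:119690101-119690350 (plus strand) for *Hmgcs1*.
Hsd17b7: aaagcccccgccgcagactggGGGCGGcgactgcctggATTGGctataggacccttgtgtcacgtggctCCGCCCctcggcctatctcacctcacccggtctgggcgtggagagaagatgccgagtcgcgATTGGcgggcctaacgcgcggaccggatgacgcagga
Ebp: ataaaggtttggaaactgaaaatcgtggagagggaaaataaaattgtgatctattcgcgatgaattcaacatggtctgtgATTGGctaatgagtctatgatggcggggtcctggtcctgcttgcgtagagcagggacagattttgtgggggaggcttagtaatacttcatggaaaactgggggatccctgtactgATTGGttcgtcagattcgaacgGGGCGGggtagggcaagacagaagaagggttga
Hmgcs1: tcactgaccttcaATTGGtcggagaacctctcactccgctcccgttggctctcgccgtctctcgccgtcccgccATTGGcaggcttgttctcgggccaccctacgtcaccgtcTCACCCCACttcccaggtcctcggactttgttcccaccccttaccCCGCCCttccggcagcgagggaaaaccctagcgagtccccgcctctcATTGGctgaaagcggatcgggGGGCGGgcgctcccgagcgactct

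The sterol element in this strict form was found in 1 of the 22 members, *Hmgcs1*, where it reads TCACCCCAC. It was present in 1.43% of the 11120 tested genes with a window and in 1.24% of all 32851 windows. The NF-Y box was present in 18 of the 22 members, as against 42.8% of tested genes and 37.4% of all windows. The Sp1 box was present in 19, as against 68.5% of tested genes and 35.7% of all windows. Both boxes were found in 16 members, and matches to different motifs did not overlap in any member's window. The share of all tested genes that hold both boxes was not counted. All 8 enzymes of the last stage held both, and of the 6 mevalonate enzymes with a window 5 held an NF-Y box and 5 an Sp1 box. The NF-Y and Sp1 boxes occurred both in members that edgeR's test called and in members that it did not. A match describes sequence and is not a binding site measured in these cells.

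The members differed widely in level. Per kb of exon, *Scd2*, a stearoyl-CoA desaturase that makes monounsaturated fatty acids, was the highest, with 762 and 853 CPM per kb in NSC and 931 and 1101 CPM per kb in the cultures labelled NSC Bmi1Over. *Hmgcs1*, *Cyp51* and *Srebf2* followed at means over the 4 libraries of 139.0, 138.8 and 101.2 CPM per kb, and *Scd1*, the paralogue of *Scd2*, lay at 96.2 CPM per kb. At the other end, *Fdps*, which joins isoprenoid units into farnesyl pyrophosphate, was counted at 1.05 and 1.32 CPM per kb in NSC and 2.54 and 2.08 CPM per kb in the cultures labelled NSC Bmi1Over. Of its exon length, 26.7% overlaps *Gm43738* on the same strand, and reads that fall on both genes are left out by the counting. The members together took 0.937% and 1.04% of the reads on genes in NSC and 1.12% and 1.22% in the cultures labelled NSC Bmi1Over.

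**Figure D1:**
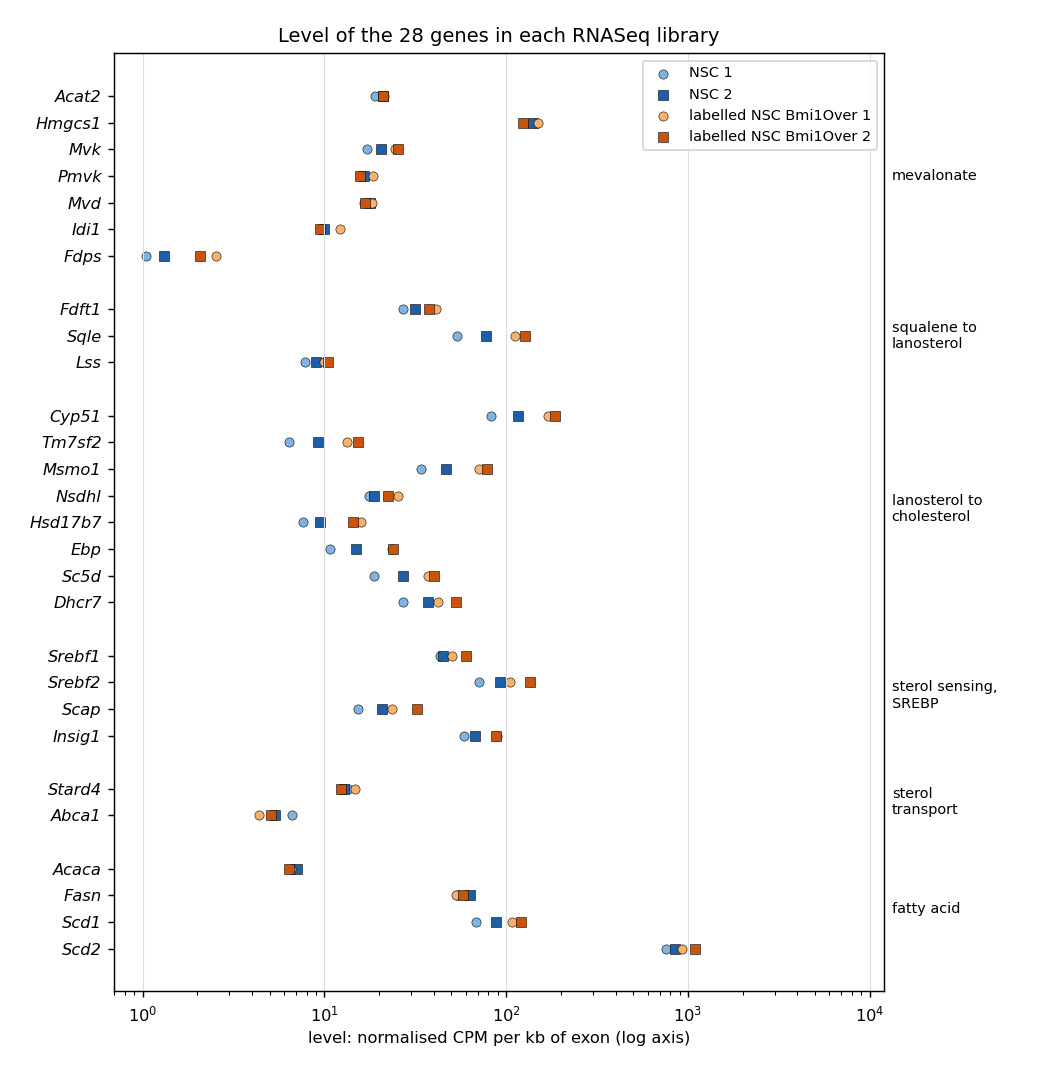
Level of each of the 28 genes in the 4 RNASeq libraries, as CPM per kb of exon on a log axis, with genes grouped by stage and 1 point per library. Levels run from about 1 for *Fdps* to 1101 for *Scd2*, and for the lanosterol to cholesterol enzymes both libraries labelled NSC Bmi1Over lie to the right of both NSC libraries.

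The question for the comparison was whether expression of the pathway differed between the cultures labelled NSC Bmi1Over and NSC. *Msmo1*, *Hsd17b7* and *Ebp*, which all act between lanosterol and cholesterol, rose 1.76-fold to 1.86-fold, and no member fell (quasi-likelihood test of edgeR, p adjusted over 15521 genes by Benjamini-Hochberg, adjusted p under 0.05). These 3 of 28 members compare with 2.15% of all tested genes called, 2.03% higher and 0.122% lower. Below an adjusted p of 0.10 lay 9 members, all higher, as against 8.50% of all genes. At an unadjusted p under 0.05, 16 of the 28 were higher and 0 lower, as against 17.0% and 7.22% of all genes tested. Both libraries labelled NSC Bmi1Over lay above both NSC libraries for 20 members and below them for 2, as against 29.0% and 30.0% of all genes. The log2 fold change was above 0 for 24 members, as against 48.6% of all genes, with a median of 0.42 over the members and −0.01 over all genes. With DESeq2's Wald test 13 members were called, all higher, where 8.39% of all genes were called higher, and 13 also in edgeR's test without a filter on low counts, where 6.63% were. With 2 cultures per group, an exact permutation test of a single gene could not give a two-sided p below 0.333. Without NSC replicate 1, 0 members passed the threshold, and without NSC Bmi1Over replicate 2 only *Hsd17b7* did, whereas 10 did without NSC replicate 2 and 9 without NSC Bmi1Over replicate 1. In these 4 fits 1.1%, 0.715%, 8.16% and 10.6% of all genes, in the same order, were called higher.

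**Figure D2:**
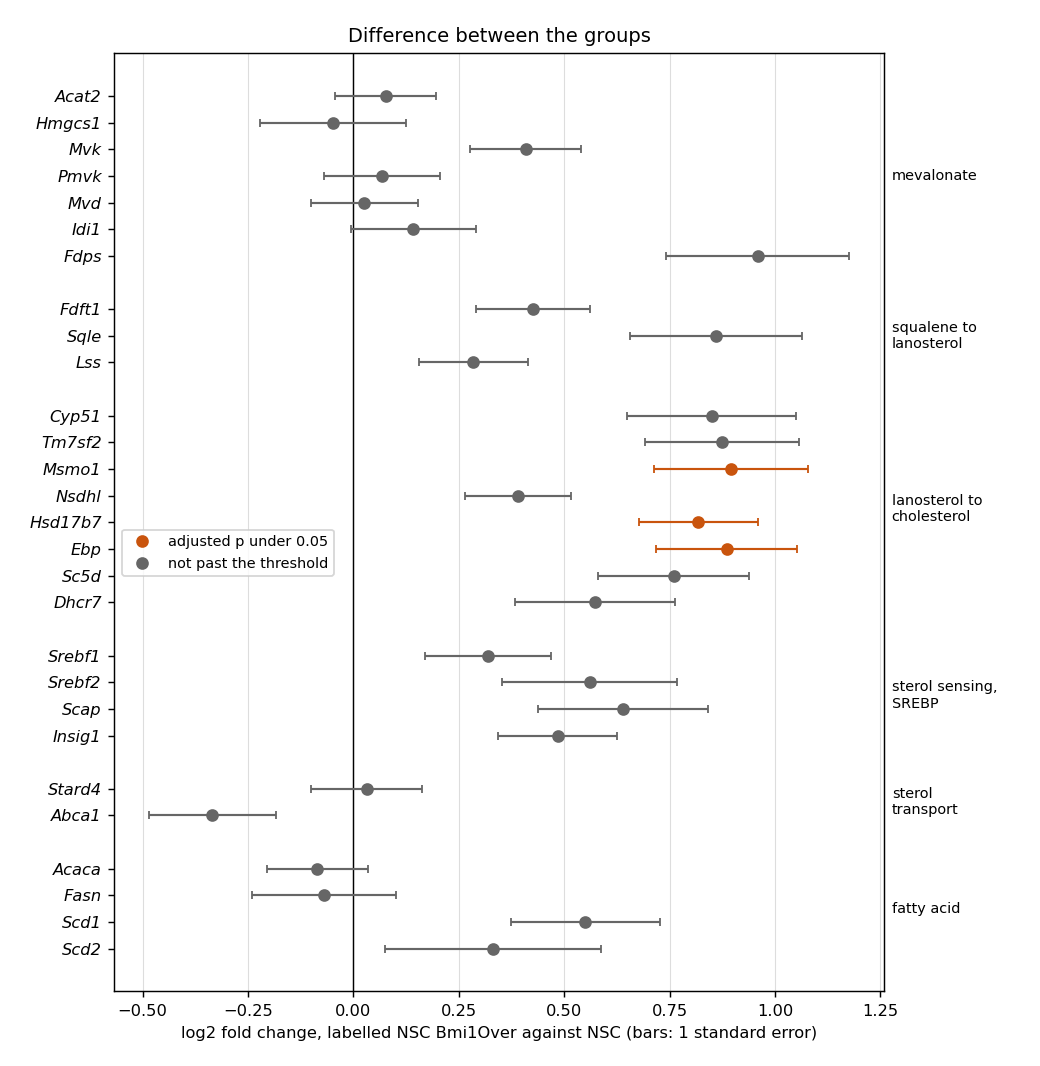
Log2 fold change of each gene in the cultures labelled NSC Bmi1Over as compared with NSC (2 cultures each), with bars of 1 standard error from the fit and the called genes in orange. The 8 lanosterol to cholesterol enzymes lie between 0.39 and 0.90, whereas 5 of the 7 mevalonate enzymes lie between −0.05 and 0.14.

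*Hsd17b7* (ENSMUSG00000026675, chromosome 1 of mm10 from 169949535 to 169969241, minus strand), a 3-ketosteroid reductase, was at 39.2 and 48.2 CPM in NSC and at 81.1 and 73.0 CPM in the cultures labelled NSC Bmi1Over. The groups did not overlap, and its log2 fold change was 0.82 (standard error 0.14, adjusted p = 0.0374, edgeR). *Ebp* (ENSMUSG00000031168, chromosome X from 8185329 to 8193512, minus strand), which moves the double bond of the sterol ring, was at 24.7 and 34.6 CPM in NSC and at 54.2 and 55.2 CPM in the cultures labelled NSC Bmi1Over. The latter were nearly equal, the NSC cultures were not, and the log2 fold change was 0.89 (standard error 0.17, adjusted p = 0.0414, edgeR). *Msmo1* (ENSMUSG00000031604, chromosome 8 from 64718139 to 64733792, minus strand), the C4-methylsterol oxidase, was at 208.9 and 285.6 CPM in NSC and at 437.5 and 482.1 CPM in the cultures labelled NSC Bmi1Over. Its groups did not overlap either, at a log2 fold change of 0.90 (standard error 0.18, adjusted p = 0.0487, edgeR), just inside the threshold. With DESeq2's size factors, with a minimum of 1 CPM or with the summed stranded counts, *Msmo1* lay just outside it, at adjusted p values of 0.0566, 0.0533 and 0.0502 in edgeR's test, and over all 12 alternatives its adjusted p ran from 4.61e-06 to 0.378. Without NSC replicate 1 the adjusted p was 0.140 for *Hsd17b7*, 0.165 for *Ebp* and 0.378 for *Msmo1* (edgeR), with the log2 fold changes still above 0.

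The other 5 enzymes of this stage did not pass in edgeR's test. For each of them the libraries labelled NSC Bmi1Over lay above both NSC libraries, as for 29.0% of all genes. DESeq2's Wald test called *Cyp51*, *Tm7sf2*, *Sc5d* and *Dhcr7* and did not call *Nsdhl*, where 8.39% of all genes were called higher. With a term for the replicate number, edgeR's test called all 5, where 15.7% of all genes were called higher. In the main fit *Tm7sf2*, a sterol C14 reductase, was nearest to the threshold. It was at 28.01 and 40.8 CPM in NSC as against 58.4 and 67.3 CPM in the cultures labelled NSC Bmi1Over. It had a log2 fold change of 0.87 (standard error 0.18, adjusted p = 0.0511, edgeR), and 12.1% of its exon length overlaps *Vps51* on the same strand. *Cyp51*, the lanosterol demethylase that opens the stage, was at 363.4 and 511.2 CPM against 753.1 and 822.6 CPM, a log2 fold change of 0.85 (standard error 0.20, adjusted p = 0.0643, edgeR). Both genes had larger fold changes than *Hsd17b7* and larger errors, and their NSC cultures lay further apart. *Sc5d*, a sterol desaturase, was at 91.2 and 131.8 CPM in NSC as against 181.3 and 195.9 CPM in the cultures labelled NSC Bmi1Over (log2 fold change 0.76, standard error 0.18, adjusted p = 0.0643, edgeR). *Dhcr7*, which carries out a closing reduction to cholesterol, and *Nsdhl*, a sterol dehydrogenase, had smaller values of 0.57 and 0.39 on the log2 scale (adjusted p of 0.121 and 0.111, edgeR). Over the 12 alternatives to the main setting, the log2 fold change of all 8 enzymes stayed above 0.

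The stage before it was mixed in size. *Sqle*, squalene epoxidase and a controlled step of the pathway, was at 298.5 and 431.1 CPM in NSC and at 622.1 and 701.8 CPM in the cultures labelled NSC Bmi1Over. The groups did not overlap, and the log2 fold change of 0.86 (standard error 0.20) did not pass the threshold (adjusted p = 0.0652, edgeR). Of this stage DESeq2's Wald test called *Sqle* alone, where 8.39% of all genes were called higher. *Fdft1*, squalene synthase, was at 0.43 and *Lss*, lanosterol synthase, at 0.28 on the log2 scale, with adjusted p values of 0.109 and 0.218 in edgeR's test. Of the exon length of *Fdft1*, 18.3% overlaps *Ctsb* on the other strand. The counts used do not separate strands, so reads that fall on both genes are left out.

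Of the 7 mevalonate enzymes edgeR's test called 0 and DESeq2's called *Fdps*, with 2 higher at an unadjusted p under 0.05 in edgeR's test, as against 8.39% of all genes called higher by DESeq2 and 17.0% higher at that unadjusted p. *Hmgcs1*, HMG-CoA synthase, was at 653.1 and 645.5 CPM in NSC and at 688.7 and 567.0 CPM in the cultures labelled NSC Bmi1Over. The NSC values fell between the others, and the log2 fold change was −0.05 (standard error 0.17, adjusted p = 0.88, edgeR). *Acat2*, *Pmvk*, *Mvd* and *Idi1*, an acetyl-CoA thiolase, a pair of enzymes that phosphorylate and decarboxylate mevalonate derivatives and an isomerase, had log2 fold changes between 0.03 and 0.14, below 0 when library size alone was used for scaling. *Mvk*, mevalonate kinase, was at 45.8 and 55.0 CPM in NSC as against 65.7 and 68.0 CPM in the cultures labelled NSC Bmi1Over (log2 fold change 0.41, standard error 0.13, adjusted p = 0.115, edgeR). *Fdps* was the exception in size, with 139 and 140 reads in NSC and 187 and 499 reads in the cultures labelled NSC Bmi1Over, or 4.40 and 5.54 CPM against 10.7 and 8.73 CPM. Its log2 fold change of 0.96 (standard error 0.22) was the largest of the 28 and did not pass (adjusted p = 0.0595, edgeR). It comes from low counts and from a gene with the overlap given above, and their part in it was not tested.

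A ratio within each library does not depend on how libraries are scaled. The summed CPM of the 8 lanosterol to cholesterol enzymes, divided by that of the 7 mevalonate enzymes, came to 1.14 and 1.54 in NSC, as against 2.03 and 2.63 in the cultures labelled NSC Bmi1Over. The mevalonate sum, of which *Hmgcs1* made up the greater part, was 843.8 and 855.9 CPM in NSC as against 927.8 and 788.3 CPM in the cultures labelled NSC Bmi1Over. The sum of the last stage was 963.6 and 1321 CPM in NSC as against 1883 and 2070 CPM in the cultures labelled NSC Bmi1Over. The late sums did not overlap between the groups, while the mevalonate sums did.

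Of the 4 factors that sense sterols or act on these promoters, edgeR's test called 0, although 3 were higher at an unadjusted p under 0.05 (17.0% of all genes), and DESeq2's Wald test called *Srebf2*, *Scap* and *Insig1* higher (8.39% of all genes). *Srebf2*, which encodes the SREBP form that acts mainly on cholesterol genes, was at 510.2 and 665.0 CPM in NSC and at 757.3 and 975.4 CPM in the cultures labelled NSC Bmi1Over, a log2 fold change of 0.56 (standard error 0.21, adjusted p = 0.152, edgeR). *Srebf1*, whose products act more on fatty acid genes, was at 244.9 and 252.7 CPM against 283.4 and 337.5 CPM (log2 fold change 0.32, standard error 0.15, adjusted p = 0.232, edgeR). The groups did not overlap for either gene, although the replicates labelled NSC Bmi1Over differed more than the NSC replicates for *Srebf1*. *Scap*, the escort of SREBP, was at 113.3 and 154.4 CPM in NSC as against 174.6 and 242.0 CPM in the cultures labelled NSC Bmi1Over (log2 fold change 0.64, standard error 0.20, adjusted p = 0.107, edgeR), with 13.2% of its exon length overlapped by *5830462I19Rik* on the other strand. *Insig1*, which retains Scap and is itself a known SREBP target, was at 182.0 and 209.6 CPM against 275.0 and 273.0 CPM, a log2 fold change of 0.49 (standard error 0.14, adjusted p = 0.0936, edgeR). Reads on *Srebf1* and *Srebf2* count messenger RNA and do not show how much of the protein was cleaved.

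The sterol transporters showed no common direction. *Abca1*, which exports cholesterol from cells, was at 69.0 and 55.1 CPM in NSC and at 45.2 and 53.0 CPM in the cultures labelled NSC Bmi1Over. It had the lowest value of the 28 at −0.33 on the log2 scale (standard error 0.15, adjusted p = 0.215, edgeR), and both libraries labelled NSC Bmi1Over lay below both NSC libraries, by a small margin at the nearest. *Stard4*, a carrier of sterol within the cell, had a log2 fold change of 0.03 (standard error 0.13, adjusted p = 0.901, edgeR), and its value lay below 0 in 3 of the 12 alternatives.

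Of the 4 fatty acid genes edgeR's test called 0 and DESeq2's called *Scd1*, the one member here with an unadjusted p under 0.05 in edgeR's test, against the same shares of all genes. *Acaca*, acetyl-CoA carboxylase, and *Fasn*, fatty acid synthase, had log2 fold changes of −0.09 and −0.07 (standard errors 0.12 and 0.17, adjusted p of 0.677 and 0.818, edgeR), with *Fasn* at 587.7 and 690.7 CPM in NSC as against 579.6 and 637.6 CPM in the cultures labelled NSC Bmi1Over. *Scd1* was at 335.9 and 427.8 CPM against 526.8 and 591.1 CPM, a log2 fold change of 0.55 (standard error 0.18, adjusted p = 0.113, edgeR). *Scd2* was at 4163 and 4663 CPM against 5087 and 6015 CPM, a log2 fold change of 0.33 (standard error 0.26, adjusted p = 0.443, edgeR). For both desaturases the libraries labelled NSC Bmi1Over were the higher, for *Acaca* they were the lower, and for *Fasn* the groups overlapped. *Scd1* and *Scd2* are close paralogues, both on chromosome 19 with *Scd4* between them, and reads shared between them would be left out as mapping to several places.

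The replicates inside a group also differed. In NSC, replicate 2 lay above replicate 1 for 25 of the 28 members, as against 49.8% of all genes tested, and by a median of 0.22 on the log2 scale. It lay above by more than 0.25 for 13 members, as against 17.1% of all genes. The differences were largest for *Tm7sf2* (0.54), *Sqle* (0.53) and *Sc5d* (0.53), which also stood among the larger differences between the groups. In the cultures labelled NSC Bmi1Over, replicate 2 lay above replicate 1 for 16 members, as against 49.7% of all genes, with a median of 0.07. There the mevalonate enzymes leaned the other way, with replicate 2 lower for 6 of 7 and by 0.35 for *Idi1*. *Scap* (0.44 in NSC and 0.47 in the cultures labelled NSC Bmi1Over), *Srebf2* (0.38 and 0.37) and *Dhcr7* (0.45 and 0.34) differed in the same direction and by similar amounts in both groups. For 20 members the order was NSC replicate 1, then NSC replicate 2, then both libraries labelled NSC Bmi1Over, as against 22.9% of all genes tested. The share of unmapped reads ordered the libraries in the same way, and its part in the result was not tested.

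**Figure D3:**
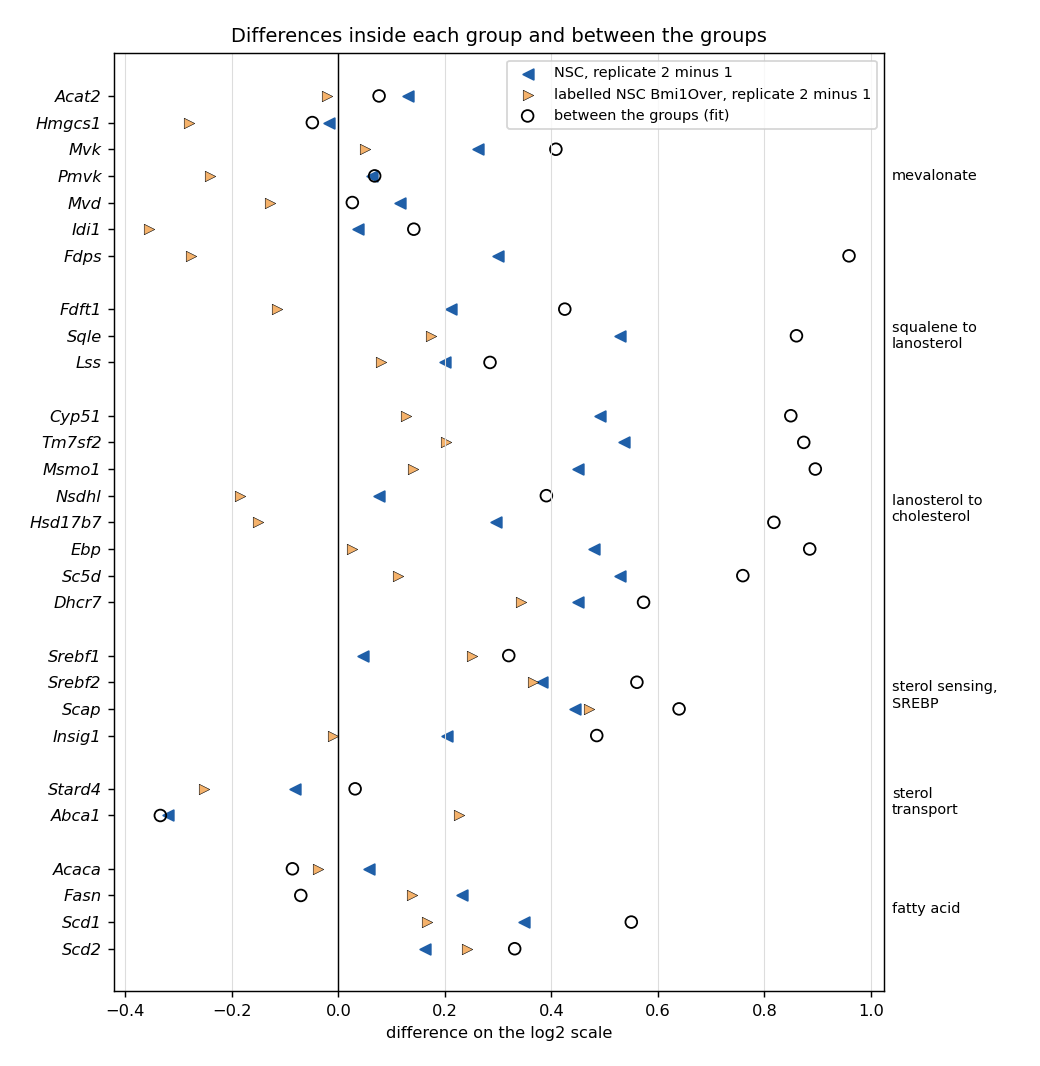
For each gene, the log2 difference between replicates 2 and 1 of NSC (blue), between replicates 2 and 1 labelled NSC Bmi1Over (orange) and between the groups (open circles). In NSC, 25 of 28 genes lie to the right of 0, and the lanosterol to cholesterol enzymes reach up to 0.54 there and up to 0.90 between the groups.

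Genes around the pathway were listed in 4 further groups, 51 in all, of which 50 were tested (*Scd3* was too low). None was called by edgeR's quasi-likelihood test at an adjusted p under 0.05, where 2.03% of all genes were called higher. At an unadjusted p under 0.05, 25 were higher and 2 lower, as against 17.0% and 7.22% of all genes, and DESeq2's Wald test called 21 higher and 0 lower, as against 8.39% and 1.25%. Genes for proteins that process SREBP or degrade sterol-regulated proteins were above 0 on the log2 scale for 7 of 7, with a median of 0.45. Among them *Erlin2*, part of the machinery of the endoplasmic reticulum that degrades such proteins, was at 168.4 and 204.9 CPM in NSC and at 260.4 and 300.1 CPM in the cultures labelled NSC Bmi1Over (log2 fold change 0.59, standard error 0.16, adjusted p = 0.0808, edgeR). Of 15 genes of sterol traffic and storage, 12 lay above 0, with a median of 0.31. They were led by *Lipa*, the lysosomal acid lipase, at 40.9 and 53.4 CPM in NSC as against 69.8 and 86.5 CPM in the cultures labelled NSC Bmi1Over (log2 fold change 0.73, standard error 0.17, adjusted p = 0.0603, edgeR), and by *Nceh1*, a cholesteryl ester hydrolase, at 0.67 (standard error 0.17, adjusted p = 0.0701, edgeR).

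Of the 18 other genes of fatty acid synthesis and elongation that were tested, 13 lay above 0, with a median of 0.50. *Elovl1*, an elongase of very long chains, was at 37.2 and 61.8 CPM in NSC as against 72.2 and 96.6 CPM in the cultures labelled NSC Bmi1Over (log2 fold change 0.78, standard error 0.23, adjusted p = 0.0989, edgeR). *Elovl6*, which extends palmitate, was at 168.6 and 225.0 CPM against 310.5 and 330.2 CPM (log2 fold change 0.70, standard error 0.17, adjusted p = 0.0669, edgeR). The groups did not overlap for either elongase. The isoprenoid branches, which use mevalonate products for purposes other than sterols, had a median of −0.10, with 3 of 10 genes above 0. There *Nus1*, needed for dolichol synthesis, was at 0.41 and *Pggt1b*, a subunit of a geranylgeranyl transferase, at −0.41 on the log2 scale (standard errors 0.14 and 0.18, adjusted p of 0.133 and 0.201, edgeR).

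**Figure D4:**
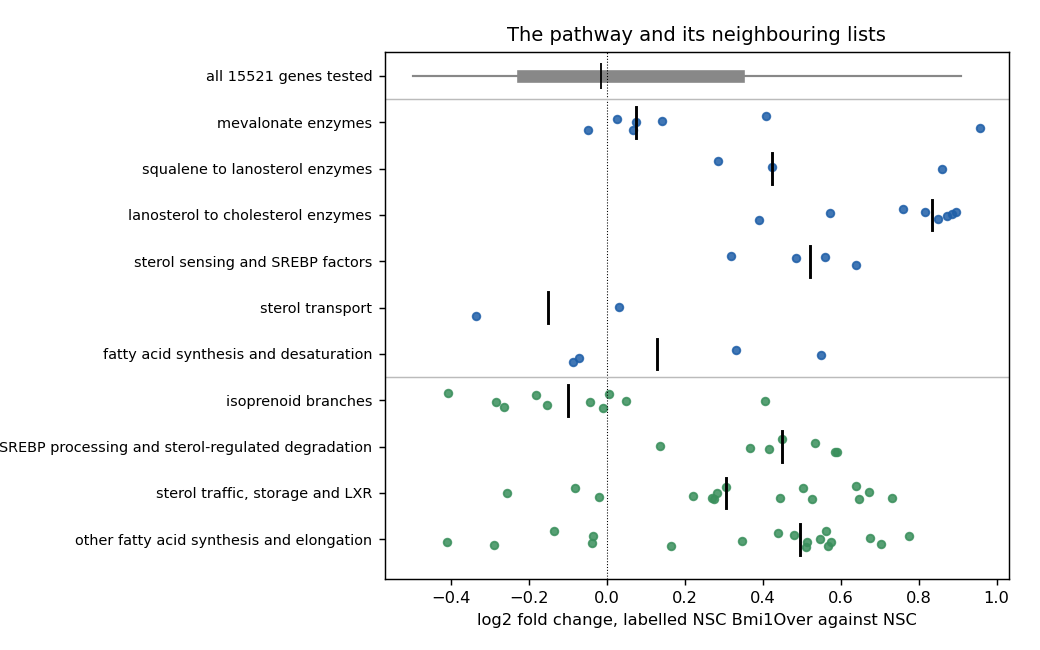
Log2 fold change of each gene (points) and the median (black line) for the 6 groups of members (blue) and the 4 further lists (green), below all 15521 genes tested, drawn as the median with the middle 50% (thick bar) and the range from percentile 5 to 95 (thin bar). The lanosterol to cholesterol enzymes have the highest median, at 0.83, and the whole set of tested genes spans −0.50 to 0.91 between these percentiles.

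H3K27me3 is the repressive mark set by Polycomb complexes. A peak lay within 5 kb of a start site of 1 of the 28 members in the NSC list and of 1 in the NSC Bmi1Over list, where 8.87% and 4.40% of 21841 protein-coding genes had one. In both lists the gene was *Nsdhl*. The NSC peak was 367 bp long, on chromosome X of mm10 from 72913335 to 72913701, and ended 4856 bp upstream of the start site, and its enrichment over background was 3.59-fold at a −log10 q of 1.90. The NSC Bmi1Over peak was 208 bp long, from 72920477 to 72920684, and began 1920 bp downstream of the start site, and its enrichment was 4.64-fold at a −log10 q of 2.87. The smallest fold enrichments in the lists were 3.52 and 4.03. The peaks of *Nsdhl* in the lists lay at different places. With the window narrowed to 1 kb, 0 members had a peak in either list. As each list comes from 1 library, no difference between the lists was tested, and the lists carry no read depths, which differed between libraries per the methods of the study.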

How the data were processed

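The authors deposited raw counts of RNASeq reads per gene, made with STAR on mm10 after trimming by Trim Galore; reads mapping to several places or to no gene stayed out of library sizes. ChIPSeq: the authors aligned with Bowtie2 2.3.4, used 1 library for each condition and ran MACS2 in its broad mode. The deposited lists give fold enrichment (a ratio), −log10 p and −log10 q; the deposited display score was not used.

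Unstranded counts of the 15521 genes kept by filterByExpr were scaled by TMM for edgeR 4.0.16 in R 4.3.3 (quasi-likelihood F-test) and fitted with no term for the replicate number, and called at a Benjamini-Hochberg adjusted p under 0.05. Standard errors come from the log2 fold change and F. The replicates are separate cultures. Replicate differences are log2 of CPM plus 0.5. Alternatives were DESeq2 1.42.0, other scalings, filters, columns and biotypes, a replicate block, each library left out, and other peak limits. GENCODE vM21 gave names, exons and start sites. The symbols of all 28 members were matched.

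Members and lists were chosen with earlier results of these data known. The list is not the whole pathway. Values per library are given for called members, the 6 largest log2 fold changes, the sterol-sensing factors, *Scd1* and *Scd2*, the highest and lowest level per kb and the 3 largest replicate differences, and some others for contrast. From each further list the 2 largest are named, except 1 gene that is not reported here.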

Additional observations from a re-analysis of the deposited data

How the results depend on the processing

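The number of called genes, 334 in the main setting, was 244 with DESeq2's size factors in edgeR's test, 1496 with DESeq2's Wald test, 537 with library size alone, 2356 without a filter and 3459 with the replicate block, and between 130 and 2013 with each library left out. Called members, 3 in the main setting, were 13 with DESeq2, 13 without a filter and 18 with the replicate block, all higher, where the block called 15.7% of all genes higher and 6.63% lower, and between 0 and 10 with each library left out. Called genes of the 4 further lists, 0 in the main setting, were 21 with DESeq2, 20 without a filter (19 higher, 1 lower) and 26 with the block (24 higher, 2 lower), and between 0 and 19 with each library left out. Of the calls, 94.3% were higher in the main setting, 80.3% without a filter, 70.3% with the block, 64.4% with library size alone and 82.6% and 81.8% without NSC replicate 2 and NSC Bmi1Over replicate 1. The cause of these shifts was not tested. *Mvk*, *Fdft1*, *Lss*, *Nsdhl* and *Srebf1* were called with the block and in no other setting. The sources used here do not say whether same-numbered cultures shared a litter or day, and deviations of same-numbered cultures correlated at 0.235 across genes. The median log2 fold change of the members stayed between 0.27 (library size alone, which moved the median of all genes to −0.17) and 0.54. With library size alone *Acat2* (−0.072), *Pmvk* (−0.0792), *Mvd* (−0.12), *Idi1* (−0.0047) and *Stard4* (−0.12) turned below 0. With each library left out, sign changes were seen for *Hmgcs1* (−0.1898 to 0.0838), *Pmvk* (−0.0476 to 0.1899), *Mvd* (−0.0317 to 0.092), *Idi1* (−0.0366 to 0.316), *Stard4* (−0.0926 to 0.1542) and *Fasn* (−0.1825 to 0.0505), none of them called. Members with an H3K27me3 peak went from 1 to 0 in both lists with a window of 1 kb, a −log10 q of at least 3 or a length of at least 1000 bp, and in the NSC list when at least 50% of the peak had to lie in the window.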

Other observations

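The members can also be parted by where their proteins are known to sit, a grouping chosen after the values were seen and therefore not tested. Of the 18 members that encode membrane proteins, among them *Sqle*, *Cyp51*, *Msmo1*, *Ebp*, *Scap*, *Insig1*, *Scd1* and *Abca1*, 17 had a log2 fold change above 0, with a median of 0.57, and the 17 lay above both NSC libraries in both libraries labelled NSC Bmi1Over, as did 29.0% of all genes tested. *Abca1* was the exception, at −0.33. Of the 10 other members, such as *Hmgcs1*, *Mvd*, *Acaca* and *Fasn*, 7 lay above 0, with a median of 0.05. For 3 of these 10 (*Acat2*, *Mvk* and *Fdps*) the libraries labelled NSC Bmi1Over lay above both NSC libraries, a share close to that of all genes. All the enzymes from squalene synthase to cholesterol are among the 18 and all the mevalonate enzymes among the 10, so this grouping in part repeats the stages. The same parting was seen between the replicates of NSC, where replicate 2 exceeded replicate 1 by a median of 0.37 on the log2 scale for the 18 and 0.09 for the 10. Between the replicates labelled NSC Bmi1Over this difference had a median of 0.15 for the 18 (14 above 0). For the 10 it was −0.18 (2 above 0).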
